A study of Arabidopsis thaliana with 10 samples.

Results

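The elements described here were the 1214 annotated copies of Gypsy retrotransposons that belonged to families other than ATHILA and shared no base with an annotated gene. They were taken from 4181 LTR/Gypsy copies and 31189 transposable elements (TEs) in the tables by 3 criteria, namely the superfamily, a family name that did not begin with ATHILA, and no overlap with a gene row. No read count was used to choose them. A further 108 copies of the same families overlapped a gene and were left out, as were the 2769 ATHILA copies outside genes. The 1214 copies fell into 16 families, with a median length of 548 bases (16 to 20084).

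Pollen messenger RNA was sequenced from Arabidopsis thaliana of the Col-0 ecotype in 10 libraries, 2 per group. Pollen of pLAT52::RTL1 plants carried a Myc-tagged RTL1 under the LAT52 promoter, which is active in the late microspore and then the vegetative cell. Pollen of pMGH3::RTL1 plants carried the same protein under the MGH3 promoter of the male germline. Both came from independent homozygous transgenic lines and were set against unsorted WT Col-0 pollen. In the second experiment, heterozygous plants that carried nrpd1a-3 and a fluorescent tagged line (FTL) marker, pLAT52::DsRed, linked to the wild-type NRPD1A allele gave both kinds of grain, which were separated by sorting. The red grains were WT FTL and the non-red grains were nrpd1a-3 FTL, so both had developed on the same mother plants. RTL1 is an RNase III-like protein that blocks the making of small interfering RNAs (siRNAs), and NRPD1A is the largest subunit of RNA polymerase IV, which makes the precursors of most TE-derived siRNAs in plants.

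Gypsy elements are retrotransposons flanked by long terminal repeats (LTRs). The 5′ LTR holds the promoter, and a short site just inside it binds the 3′ end of a transfer RNA, which primes the copying of the RNA into DNA. The LTRs of a copy are identical when it inserts and then diverge, so their identity is a rough measure of its age. In plants such elements are kept silent by DNA methylation, which siRNAs guide through RNA-directed DNA methylation. In pollen, the vegetative cell loosens its heterochromatin while the sperm cells keep theirs.

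The sequence of these elements is known from the reference genome, in which the 5 nuclear chromosomes of RefSeq TAIR10.1 had the same lengths as in the deposited tables. A search of the 430 copies of at least 1000 bases found a pair of terminal repeats in 73, of which 26 were ATGP1. In 44 of the 73 the bases just inside one LTR matched the end of an annotated nuclear tRNA at 11 or more of 12 positions, on either strand, within a window of 22 bases. The same search in a window of that length at the middle of all 430 copies gave 1 match (0.233%). The exact tRNA-Met match TGGTATCAGAGC was found in 25 copies, against 0 middle windows. All 8 ATLANTYS1 copies with a repeat pair had a tRNA-Lys match, 6 of 10 ATLANTYS2 copies had a tRNA-Asn match, and none of the 8 ATGP3 or 5 ATGP5 copies had any match.

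The ends of 5 such 5′ LTRs are shown because they hold the tRNA match, which some families shared and others did not. Each line gives the last 30 bases of the LTR and the bases that follow it, 5′ to 3′ along the element, with the tRNA match in capitals. The copies were AT4TE21295 and AT4TE27915 (ATGP1, chr4:5133982-5134026 and chr4:6535989-6536033, minus strand), AT4TE19655 (ATGP7, chr4:4671267-4671310, plus strand), AT4TE21090 (ATLANTYS1, chr4:5073699-5073742, minus strand) and AT3TE54180 (ATLANTYS2, chr3:13241129-13241173, plus strand). The ATGP1 and ATGP7 sites carried the same 12 bases, and the ATLANTYS sites differed from them and from each other.
AT4TE21295: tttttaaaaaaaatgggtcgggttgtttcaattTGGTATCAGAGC
AT4TE27915: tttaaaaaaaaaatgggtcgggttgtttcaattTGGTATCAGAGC
AT4TE19655: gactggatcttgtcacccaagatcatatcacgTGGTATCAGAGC
AT4TE21090: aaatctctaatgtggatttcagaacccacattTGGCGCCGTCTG
AT3TE54180: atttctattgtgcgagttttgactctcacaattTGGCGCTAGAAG

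The tables held 43490027 to 53471964 reads over genes and TEs per library. In CPM, the reads of a row scaled to the same library total, the 1214 Gypsy copies reached 193 and 184 in pLAT52::RTL1 pollen, 150 and 140 in pMGH3::RTL1 pollen and 146 and 136 in WT Col-0. They reached 94.1 and 109 CPM in nrpd1a-3 FTL and 117 and 105 in WT FTL. After division by size factors, which correct for the make-up of each library, the pLAT52::RTL1 sums (6578 and 6633) lay below those of WT Col-0 (7128 and 6650), so the order of the summed level depended on the scaling. The RTL1 gene had 270 and 138 reads in pLAT52::RTL1 pollen, 134 and 156 in pMGH3::RTL1 pollen, against 0 in the other 6 libraries. NRPD1A had 10 and 0 reads in nrpd1a-3 FTL and 0 and 2 in WT FTL, too few to check that label. The pollen label was checked on marker genes, of which 10 of the tapetum summed to at most 0.871 CPM, with 6 of them at 0 in every library. The 10 vegetative cell markers summed to between 40569 and 44348 CPM in the unsorted libraries and between 4957 and 12643 in the sorted ones.

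Most copies, 865 of the 1214, had no counted read in any library. The other 349 had at least 1 read, and 187 had 10 or more and 65 had 100 or more over the 10 libraries. Copies with a read numbered 213 and 205 in pLAT52::RTL1 pollen, 181 and 170 in pMGH3::RTL1 pollen, 157 and 151 in WT Col-0, 133 and 124 in nrpd1a-3 FTL and 170 and 134 in WT FTL. The 8 most abundant copies held 63.1% of all 70006 reads. A read appeared in 44 of the 73 copies with a repeat pair and in 119 of the 357 copies of at least 1000 bases without one. Of the 187 copies with 10 or more reads, 40 overlapped another annotated TE, and reads in such an overlap were counted for both rows. Between 65.7% and 74.8% of the counts over 20 in a library were even, as when both mates of a read pair are counted.

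The families differed widely in level. Over all libraries ATLANTYS3 had 28117 reads, ATLANTYS2 10788, ATGP2 8641 and ATGP8 7899, but the order differed between the experiments. ATLANTYS3 and ATLANTYS2 were the highest in all 6 unsorted libraries. In nrpd1a-3 FTL, ATGP2 had 1402 and 2076 reads and ATLANTYS3 971 and 760, and in WT FTL ATGP2 had 1177 and 1962 and ATLANTYS3 1894 and 797. ATGP7 (342 reads), ATGP6 (140), ATGP9LTR (76) and ATGP10 (47) had few reads although ATGP10 had 154 copies, and the 2 TA1_AT fragments had no read. On a scale of normalised counts per kb of annotated family length, ATLANTYS3 averaged 19.4 ± 5.32 in pLAT52::RTL1 pollen, 24.9 ± 0.025 in pMGH3::RTL1 pollen and 25.2 ± 0.899 in WT Col-0, and 7.69 ± 1.13 in nrpd1a-3 FTL and 8.89 ± 4.05 in WT FTL (SD, n = 2 each). ATGP1, with the largest set of copies that had a repeat pair, averaged 1.28 ± 0.404 in pLAT52::RTL1 pollen, 0.601 ± 0.240 in pMGH3::RTL1 pollen, 0.793 ± 0.420 in WT Col-0, 0.756 ± 0.251 in nrpd1a-3 FTL and 0.565 ± 0.208 in WT FTL on the same scale. The plot of family sums shows, for each library, the 13 families whose reads over all libraries came to at least 100.

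**Figure D1:**
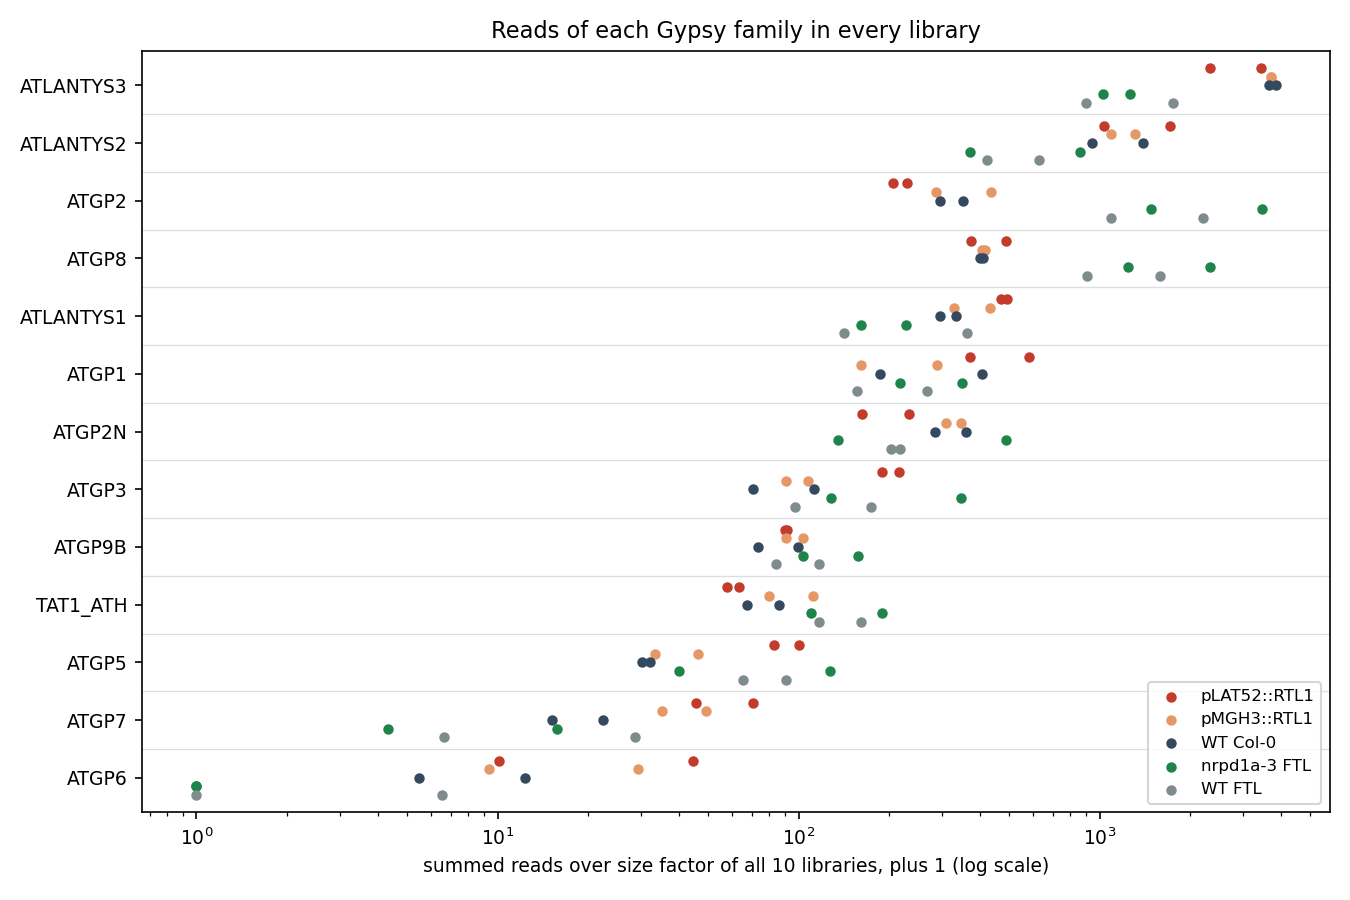
Summed reads of each family with at least 100 reads, divided by the size factor of all 10 libraries, plus 1, on a log axis. Each point is a library, with 2 per group. ATGP3, ATGP5 and ATLANTYS1 points of pLAT52::RTL1 lie right of both WT Col-0 points, and ATGP2 and ATGP8 points of the sorted libraries lie right of all unsorted ones.

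The first comparison asked which copies gained or lost transcripts when RTL1 was made in the vegetative cell. In pLAT52::RTL1 pollen, 7 Gypsy copies had more reads than in WT Col-0 and 2 had fewer at an adjusted p below 0.05 (DESeq2, Wald test). These were 7 and 2 of the 49 copies with enough reads for an adjusted p, out of 1214 copies in all. Among all 11002 genes and TEs tested, 6.53% were higher and 7.77% lower. The median log2 fold change of the 49 copies was -0.00, against -0.01 over all features tested. The 56 ATHILA copies tested had 17 higher, 1 lower and a median of 1.06. Where counts were scaled by total reads instead, 11 copies were higher and 1 was lower, and the median of all features moved to 0.49. The plot of fold changes shows the 3 strongest increases among the copies with low mean counts, with standard errors of 0.95 to 1.19.

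**Figure D2:**
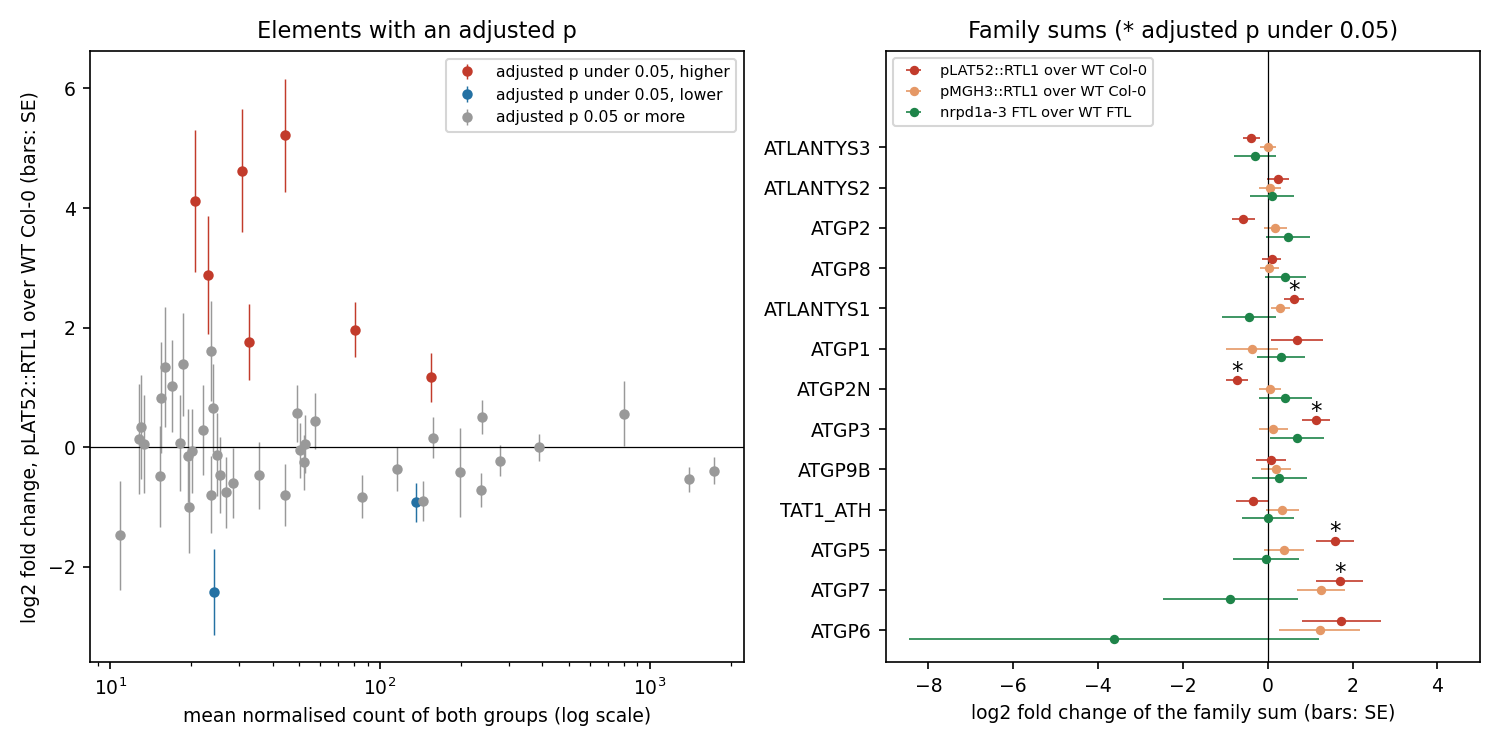
Left, log2 fold change (± SE) of pLAT52::RTL1 over WT Col-0 against the mean normalised count for the 49 copies with an adjusted p, of which 7 higher and 2 lower copies are coloured. Right, log2 fold change (± SE) of each family sum in 3 comparisons, where asterisks mark the 4 families higher and 1 lower in pLAT52::RTL1.

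The largest increase with an adjusted p was in AT4TE21295, an ATGP1 copy of 8052 bases at chr4:5127101-5135152. It had 158 and 68 reads in pLAT52::RTL1 pollen, 2 and 2 in pMGH3::RTL1 pollen, against 2 and 2 in WT Col-0. It had 10 and 4 reads in nrpd1a-3 FTL, against 2 and 0 in WT FTL. Both pLAT52::RTL1 libraries stood far above the other 8, at normalised counts of 120 and 53.0, and no group overlapped with them. Without pLAT52::RTL1 replicate 1 the copy had no adjusted p. The log2 fold change over WT Col-0 was 5.22 ± 0.95 (SE, adjusted p = 1.09e-06, DESeq2), and over pMGH3::RTL1 it was 5.33 ± 0.95 (adjusted p = 6.24e-07, DESeq2). Counted as read pairs, the ratio to WT Col-0 was 37.4, with a 95% exact interval of 10.1 to 313 that covers counting error only. Both ends were present, with LTRs of 1157 bases that were 97.4% identical. It was inserted between pieces of a VANDAL17 DNA transposon, AT4TE21290 and AT4TE21300, 1 base away on each side. Both pieces, and the nearest gene AT4G08140 at 520 bases, had 0 reads in all 10 libraries. The intergenic rows at its borders also had 0 reads in all libraries.

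Another ATGP1 copy with a repeat pair did not share this pattern. AT4TE27915, the most abundant ATGP1 copy, lies at chr4:6529315-6537160 with LTRs of 1158 bases that were 96.8% identical. It had 253 and 190 reads in pLAT52::RTL1 pollen, 220 and 96 in pMGH3::RTL1 pollen, against 262 and 115 in WT Col-0. It had 20 and 4 reads in nrpd1a-3 FTL, against 164 and 34 in WT FTL. The pLAT52::RTL1 counts lay within the range of WT Col-0 (log2 fold change -0.42 ± 0.75, adjusted p = 0.82, DESeq2). In nrpd1a-3 FTL both counts lay below both WT FTL counts (-2.78 ± 1.00), but the adjusted p was 0.99 (DESeq2). Over the whole 5′ LTR the copies AT4TE21295 and AT4TE27915 were 95.5% identical. Their first 300 bases are shown because an LTR holds the promoter and these copies, which share a tRNA site, had such unlike counts. The bases at which they differ, 17 in each, are in capitals; the stretches are chr4:5134853-5135152 and chr4:6536861-6537160, both on the minus strand.
AT4TE21295: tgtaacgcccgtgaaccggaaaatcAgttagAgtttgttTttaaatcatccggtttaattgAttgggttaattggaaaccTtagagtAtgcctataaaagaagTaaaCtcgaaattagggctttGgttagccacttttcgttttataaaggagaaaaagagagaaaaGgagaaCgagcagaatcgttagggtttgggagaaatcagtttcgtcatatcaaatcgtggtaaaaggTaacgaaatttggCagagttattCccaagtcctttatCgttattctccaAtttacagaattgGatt
AT4TE27915: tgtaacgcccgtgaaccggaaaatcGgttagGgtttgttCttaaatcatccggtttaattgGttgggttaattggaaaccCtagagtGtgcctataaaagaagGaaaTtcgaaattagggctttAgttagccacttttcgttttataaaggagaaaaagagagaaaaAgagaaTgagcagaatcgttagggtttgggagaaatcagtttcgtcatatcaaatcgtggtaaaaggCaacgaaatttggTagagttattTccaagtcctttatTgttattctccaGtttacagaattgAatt

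The other ATGP1 copy past the threshold was AT1TE51700, 3304 bases at chr1:15698426-15701729, in which no repeat pair was found. It had 93 and 61 reads in pLAT52::RTL1 pollen, 2 and 0 in pMGH3::RTL1 pollen, against 4 and 0 in WT Col-0. All 4 sorted libraries had 0 reads. The log2 fold change over WT Col-0 was 4.62 ± 1.03 (adjusted p = 0.000136, DESeq2), and as read pairs the ratio was 25.8 (6.92 to 217, counting error only). Leaving out pLAT52::RTL1 replicate 1, pLAT52::RTL1 replicate 2 or WT Col-0 replicate 2 left it without an adjusted p. An ATHILA fragment inside it, AT1TE51705, held 61 and 50 of the pLAT52::RTL1 reads. At 99% identity or more, 49.8% of its bases had another copy in the genome, so the placement of its reads among such copies is uncertain. The ATHILA4A row AT1TE51690, 520 bases to its left, had 493 and 195 reads in pLAT52::RTL1, against 18 and 18 in WT Col-0 (log2 fold change 3.65 ± 0.48, adjusted p = 3.04e-12, DESeq2).

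Summed over its 131 copies, ATGP1 did not pass the test, with a log2 fold change of 0.69 ± 0.62 (adjusted p = 0.55, DESeq2). The family had 879 and 529 reads in pLAT52::RTL1 pollen, 303 and 173 in pMGH3::RTL1 pollen, against 361 and 196 in WT Col-0. AT4TE27915 alone held 41.4% of the family's reads. Without it the remaining 130 copies had 626 and 339 reads in pLAT52::RTL1 pollen, 83 and 77 in pMGH3::RTL1 pollen, against 99 and 81 in WT Col-0. This split was made after the values were seen and was given no test. AT3TE51505, AT2TE07550 and AT3TE46670, named after their values were seen, had too few reads for an adjusted p. AT3TE51505 had 60 and 14 reads in pLAT52::RTL1, against 4 and 2 in WT Col-0. AT2TE07550 had 50 and 18, against 2 and 2. AT3TE46670 had 24 and 14, against 0 and 0. AT5TE46515, a copy with a repeat pair whose LTRs were only 89.3% identical, had 24 and 32 reads in pLAT52::RTL1, against 18 and 34 in WT Col-0.

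On chromosome 3, adjoining fragments of different families rose side by side. AT3TE53850 (ATGP7, 4285 bases, chr3:13165706-13169990) had 74 and 28 reads in pLAT52::RTL1 pollen, 16 and 2 in pMGH3::RTL1 pollen, against 0 and 4 in WT Col-0. Its log2 fold change over WT Col-0 was 4.12 ± 1.19 (adjusted p = 0.00578, DESeq2), a ratio of 16.9 in read pairs (4.44 to 143, counting error only). Without WT Col-0 replicate 1 it was 3.18 (adjusted p = 0.159, DESeq2), and without any other library of the comparison it had no adjusted p. AT3TE53865 (ATGP5, 677 bases, chr3:13169991-13170667) abuts it with no base between. It had 55 and 51 reads in pLAT52::RTL1 pollen, 4 and 2 in pMGH3::RTL1 pollen, against 0 and 10 in WT Col-0 (2.88 ± 0.99, adjusted p = 0.0282, DESeq2). Without single libraries this fold change lay between 1.92 (adjusted p = 0.387, DESeq2), without WT Col-0 replicate 1, and 7.45, fitted against WT Col-0 replicate 1 alone, which had 0 reads. The row listed at their border had 4 and 7 reads in pLAT52::RTL1, against 0 and 0 in WT Col-0, so some reads spanned the border and the rows were not independent. The flanking ATGP5 pieces AT3TE53845 and AT3TE53870 and the nearest gene AT3G32200 had 0 reads in all 10 libraries.

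AT2TE08225, an ATGP3 copy of 5246 bases at chr2:1781546-1786791, had 194 and 142 reads in pLAT52::RTL1 pollen, 30 and 35 in pMGH3::RTL1 pollen, against 18 and 40 in WT Col-0. It had 87 and 169 reads in nrpd1a-3 FTL, against 61 and 85 in WT FTL. Both pLAT52::RTL1 values exceeded all 4 other unsorted ones. The log2 fold change was 1.96 ± 0.46 over WT Col-0 (adjusted p = 0.000347, DESeq2) and 1.89 ± 0.46 over pMGH3::RTL1 (adjusted p = 0.000576, DESeq2). Without WT Col-0 replicate 1 the fold change over WT Col-0 was 1.58 (adjusted p = 0.0722, DESeq2), and without pLAT52::RTL1 replicate 1 there was no adjusted p. In nrpd1a-3 FTL it was 1.16 ± 0.70 over WT FTL (adjusted p = 0.99, DESeq2). The LTRs of 280 bases were 98.9% identical, and the search found no other copy of it at 99% identity or more. Reads crossed its left edge, and whether their transcript began in this copy or to its left was not tested. The intergenic row of 45 bases left of it had 170 and 111 reads in pLAT52::RTL1, against 10 and 39 in WT Col-0. Its counts were thus close to those of the whole copy. The ATCOPIA57 fragment AT2TE08220, 44 bases away, had 192 and 113, against 13 and 39 (1.99 ± 0.51, adjusted p = 0.00151, DESeq2). To its right, the ATCOPIA57 row AT2TE08235 had 174 and 251 reads in pLAT52::RTL1, against 160 and 190 in WT Col-0 (-0.31 ± 0.29, adjusted p = 0.59, DESeq2). Both LTRs are shown, on the plus strand, because the reads crossed the outer end of the left one (chr2:1781546-1781825), whereas the row listed at the right border of the element, beyond the right one (chr2:1786501-1786780), had 0 reads in all 6 unsorted libraries. Capitals mark the 3 bases at which they differ.
AT2TE08225 left: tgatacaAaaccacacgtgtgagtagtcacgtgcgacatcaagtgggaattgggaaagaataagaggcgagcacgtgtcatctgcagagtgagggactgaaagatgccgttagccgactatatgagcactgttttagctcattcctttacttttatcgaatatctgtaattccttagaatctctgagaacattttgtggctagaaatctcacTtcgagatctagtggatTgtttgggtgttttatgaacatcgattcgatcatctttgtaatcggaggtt
AT2TE08225 right: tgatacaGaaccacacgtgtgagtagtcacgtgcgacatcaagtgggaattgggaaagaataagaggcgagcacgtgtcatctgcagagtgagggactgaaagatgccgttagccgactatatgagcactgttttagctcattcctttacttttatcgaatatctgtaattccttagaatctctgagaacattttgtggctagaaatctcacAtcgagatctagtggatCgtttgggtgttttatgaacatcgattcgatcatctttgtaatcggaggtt

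AT2TE12315, an ATGP5 copy of 6360 bases at chr2:2793396-2799755, had 76 and 56 reads in pLAT52::RTL1 pollen, 36 and 20 in pMGH3::RTL1 pollen, against 10 and 16 in WT Col-0. It had 0 and 0 reads in nrpd1a-3 FTL, against 28 and 0 in WT FTL. The pLAT52::RTL1 counts lay above the rest (1.76 ± 0.63, adjusted p = 0.0394, DESeq2), but the call was lost on leaving out any library of the comparison (1.55 to 2.00). It is inserted in the ATHILA4A copy AT2TE12310, which had the same count in 9 of the 10 libraries, so that the reads of the larger row were those of the ATGP5 insertion. AT3TE57060, an ATLANTYS1 copy of 4778 bases at chr3:13878028-13882805, had 162 and 392 reads in pLAT52::RTL1 pollen, 204 and 122 in pMGH3::RTL1 pollen, against 76 and 88 in WT Col-0. Its log2 fold change over WT Col-0 was 1.17 ± 0.41 (adjusted p = 0.0351, DESeq2), and the pMGH3::RTL1 counts overlapped those of pLAT52::RTL1. Without pLAT52::RTL1 replicate 2 it was 0.37 (adjusted p = 0.656, DESeq2), and the call was also lost without WT Col-0 replicate 1 (1.18) or replicate 2 (1.15). It lies among ATHILA rows with 0 to 3 reads, and its nearest gene AT3G33187 was 137881 bases away.

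The 2 lower copies were fragments within larger rows. AT4TE08440 (ATGP2, 1317 bases, chr4:1667890-1669206) had 14 and 6 reads in pLAT52::RTL1 pollen, 38 and 20 in pMGH3::RTL1 pollen, against 36 and 34 in WT Col-0. Its log2 fold change over WT Col-0 was -2.42 ± 0.72 (adjusted p = 0.00761, DESeq2), and the call was lost without WT Col-0 replicate 1 (-2.26) or pLAT52::RTL1 replicate 2 (-1.94). The ATENSPM2 row AT4TE08435 that contains it had the same count in all 10 libraries. All of its bases had a copy of at least 99% identity elsewhere, the longest in AT2TE00015, an abundant ATGP2 copy, so its reads cannot be placed with certainty. AT4TE74250 (ATLANTYS3, 411 bases, chr4:15562777-15563187) had 105 and 140 reads in pLAT52::RTL1 pollen, 151 and 155 in pMGH3::RTL1 pollen, against 123 and 188 in WT Col-0. The raw counts overlapped, whereas the normalised counts were 79.7 and 109 in pLAT52::RTL1, against 156 and 201 in WT Col-0 (-0.92 ± 0.32, adjusted p = 0.0315, DESeq2). This call was lost without pLAT52::RTL1 replicate 1 (-0.70), WT Col-0 replicate 1 (-1.10) or WT Col-0 replicate 2 (-0.73). The ATLANTYS3 row AT4TE74230 around it, which overlaps a gene, did not pass the test (-0.03 ± 0.17, adjusted p = 0.95, DESeq2).

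**Figure D3:**
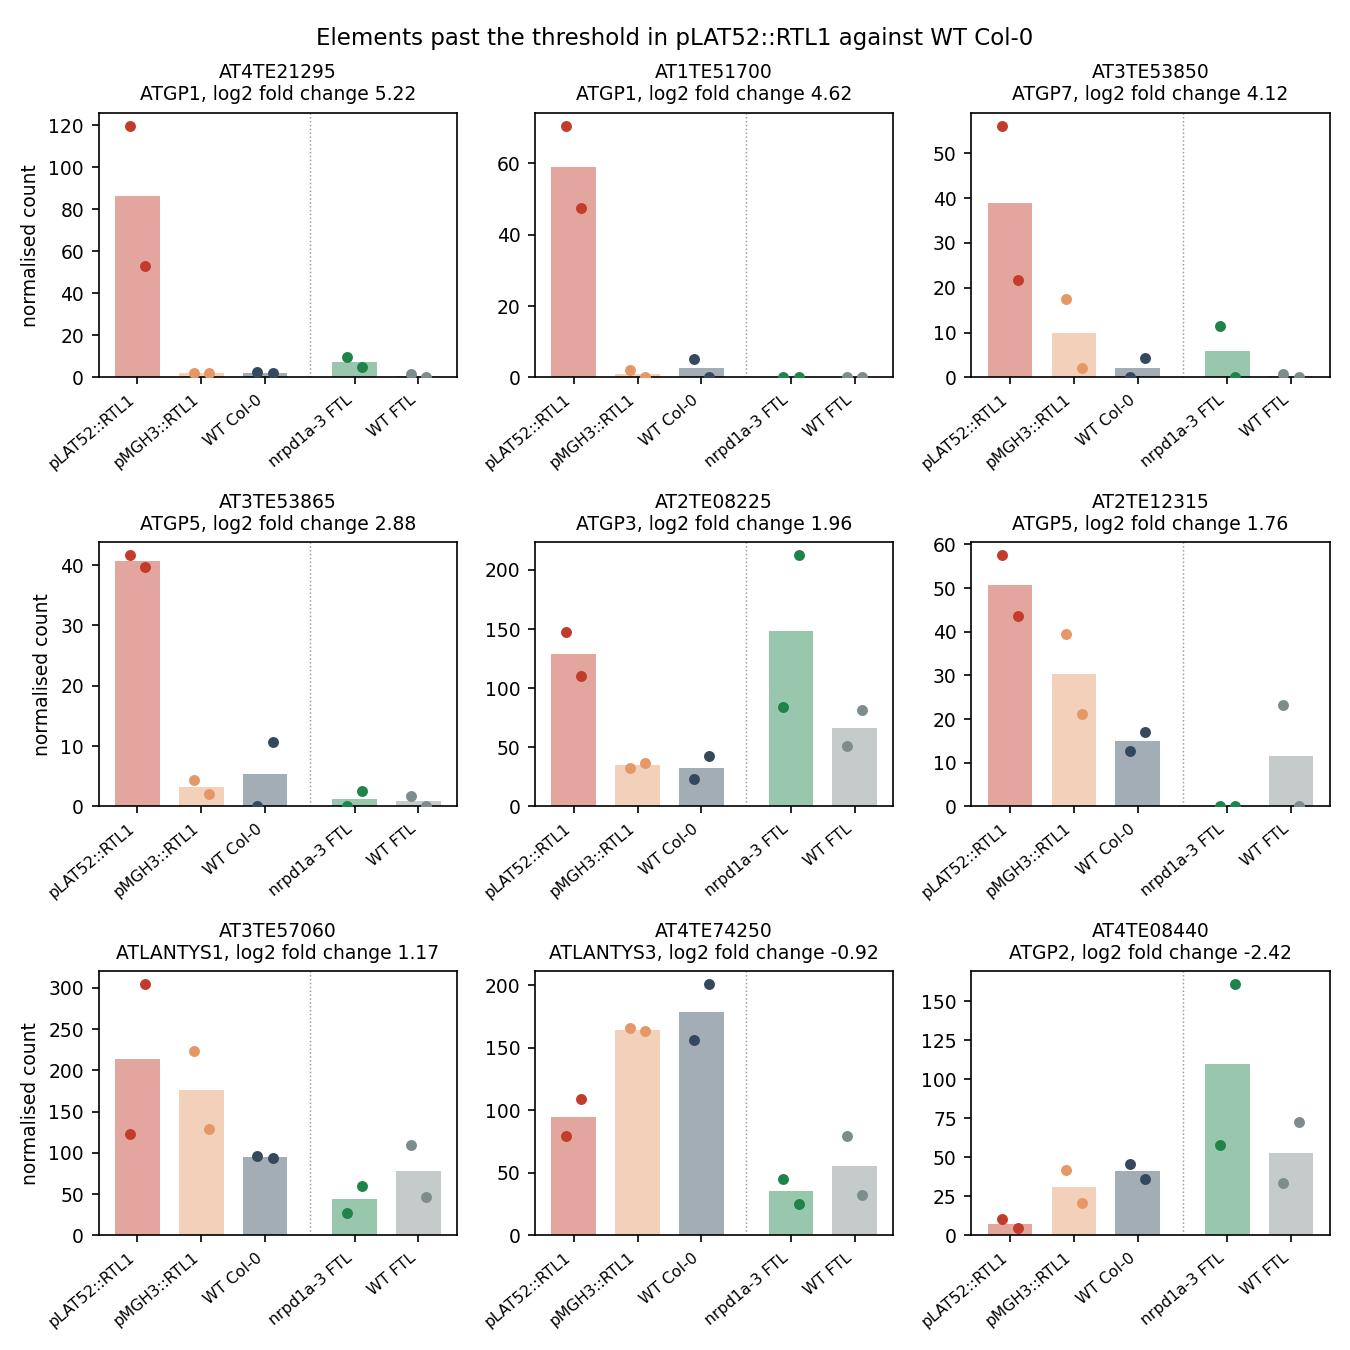
Normalised counts of the 9 copies past the threshold in pLAT52::RTL1 against WT Col-0, scaled within each experiment, which the dotted line separates. Points are libraries and bars are means of 2. AT4TE21295 and AT1TE51700 were near 0 outside pLAT52::RTL1, whereas AT2TE08225 was also well above 0 in both sorted groups.

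The 7 higher copies had a median of 11 genes within 100 kb on each side (0 to 30), and the 40 copies tested and not called had a median of 37 (2 to 62). The median over all 1214 copies was 11. Of the 8 nearest genes of the 9 called copies, 6 had 0 reads in every library, so no change of theirs could be measured. AT2G05050 had 29 and 22 reads in pLAT52::RTL1, against 2 and 14 in WT Col-0, and AT4G32230 had 11 and 14, against 9 and 6, both without an adjusted p.

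By family, 4 sums were higher in pLAT52::RTL1 compared with WT Col-0 and 1 was lower, of 13 with an adjusted p. With family sums in place of single copies, 6.64% of all features were higher and 7.88% lower. ATGP3 had 324 and 270 reads in pLAT52::RTL1 pollen, 95 and 115 in pMGH3::RTL1 pollen, against 62 and 118 in WT Col-0 (log2 fold change 1.15 ± 0.33, adjusted p = 0.00534, DESeq2). Without AT2TE08225 the other ATGP3 copies had 130 and 128 reads in pLAT52::RTL1, against 44 and 78 in WT Col-0. ATGP5 had 150 and 117 reads in pLAT52::RTL1 pollen, 48 and 35 in pMGH3::RTL1 pollen, against 26 and 33 in WT Col-0 (1.59 ± 0.45, adjusted p = 0.0052, DESeq2). Its 2 called copies accounted for nearly all of this, since the other 77 copies had 19 and 10 reads in pLAT52::RTL1, against 16 and 7 in WT Col-0. ATGP7 had 105 and 64 reads in pLAT52::RTL1 pollen, 51 and 37 in pMGH3::RTL1 pollen, against 19 and 15 in WT Col-0 (1.70 ± 0.55, adjusted p = 0.0186, DESeq2). Without AT3TE53850, the other ATGP7 copies had 31 and 36 reads in pLAT52::RTL1, against 19 and 11 in WT Col-0. ATLANTYS1 had 710 and 703 reads in pLAT52::RTL1 pollen, 454 and 354 in pMGH3::RTL1 pollen, against 295 and 312 in WT Col-0 (0.62 ± 0.23, adjusted p = 0.0486, DESeq2). Without AT3TE57060, the other ATLANTYS1 copies had 548 and 311 reads in pLAT52::RTL1, against 219 and 224 in WT Col-0. The remainders are raw reads and were given no test. The size factors were 1.32 and 1.28 in pLAT52::RTL1, against 0.789 and 0.935 in WT Col-0. Divided by them, the remainders of ATGP5, ATGP7 and ATLANTYS1 overlapped between the groups, and those of ATGP3 did not. ATGP2N was the lower family, with 244 and 330 reads in pLAT52::RTL1 pollen, 326 and 374 in pMGH3::RTL1 pollen, against 251 and 380 in WT Col-0 (-0.71 ± 0.26, adjusted p = 0.0438, DESeq2). Its raw counts overlapped, and with scaling by total reads 6 families were higher and none lower. The families ATLANTYS3 (-0.38 ± 0.19), ATLANTYS2 (0.24 ± 0.26), ATGP2 (-0.58 ± 0.27) and ATGP8 (0.09 ± 0.23), which held most reads, did not pass the test.

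These calls rested on few reads and 2 libraries per group. Without pLAT52::RTL1 replicate 1, 1 copy and 0 families passed the test. Without WT Col-0 replicate 1, 2 of the 9 copies passed and none of the 5 families did, although 1 other family passed. Without WT Col-0 replicate 2, 2 of the 9 copies and 1 of the 5 families passed. Leaf markers were higher in both transgenic groups, at 6.74 and 7.72 CPM summed over 10 genes in pLAT52::RTL1 pollen, 5.06 and 7.14 in pMGH3::RTL1 pollen, against 1.66 and 1.70 in WT Col-0. Among the 10 vegetative cell markers, 1 was higher and 6 were lower in pLAT52::RTL1 compared with WT Col-0, and among the 10 sperm markers 1 was lower. These calls used size factors. In CPM the vegetative cell markers were not lower, at 42561 and 44348 summed in pLAT52::RTL1, against 42014 and 40569 in WT Col-0. The part of the leaf, vegetative cell and sperm markers in the counts of the Gypsy copies was not tested. In unsorted or sorted pollen, fewer cells of a type and less RNA per cell cannot be told apart. Of 38 genes with roles in TE silencing, 16 had an adjusted p, of which 0 were higher and 1 lower in pLAT52::RTL1 compared with WT Col-0, beside 7.77% lower among all features. The lower gene was MET1, the maintenance DNA methyltransferase, with 1617 and 2492 reads in pLAT52::RTL1, against 1855 and 2298 in WT Col-0 (-0.60, adjusted p = 0.0431, DESeq2). Its raw counts overlapped. Its fold change was not followed with scaling by total reads, which moved the median of all features to 0.49.

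With RTL1 in the male germline, no copy passed the test. Of 321 copies tested in pMGH3::RTL1 against WT Col-0, 0 were called by DESeq2, and 2 had an unadjusted p below 0.05 by DESeq2. Among all features 0.0217% were called and 1.11% had an unadjusted p below 0.05. edgeR, which tested 70 copies after its filter, called 0. The largest copies of the pLAT52::RTL1 comparison had log2 fold changes here of -0.11 ± 1.19 for AT4TE21295, -1.15 ± 1.44 for AT1TE51700 and 0.08 ± 0.49 for AT2TE08225. AT3TE57060 had the lowest p of the named copies (0.89 ± 0.42, unadjusted p = 0.0329, adjusted p = 1, DESeq2). No family was called either by DESeq2 or by edgeR, beside 0.0219% of all features in the fit with family sums. ATGP7 had a log2 fold change of 1.25 ± 0.56 (unadjusted p = 0.0264, adjusted p = 1, DESeq2), and the only other family above 1 was ATGP6 at 1.23 ± 0.95.

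Set directly against each other, the transgenes differed at 7 of 44 copies tested, with 4 higher and 3 lower in pLAT52::RTL1 than in pMGH3::RTL1. Among all features 5.53% were higher and 7.36% lower. The higher copies were AT4TE21295, AT1TE51700 (5.77 ± 1.26), AT3TE53865 (3.65 ± 1.05) and AT2TE08225. The lower copies were AT4TE08440 (-2.03 ± 0.72), AT4TE74245 (-1.01 ± 0.36) and AT3TE13060 (-0.58 ± 0.21). AT4TE74245, an ATLANTYS2 fragment of 147 bases that abuts AT4TE74250, had 72 and 88 reads in pLAT52::RTL1, against 123 and 108 in pMGH3::RTL1. With scaling by total reads 7 copies were higher and 0 lower, and without pLAT52::RTL1 replicate 1 no copy was called. Without pMGH3::RTL1 replicate 1 or replicate 2, 2 copies were called each time.

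Loss of NRPD1A in the grain gave no called copy. Of 229 copies tested in nrpd1a-3 FTL against WT FTL, 0 were called by DESeq2, and 5 had an unadjusted p below 0.05 by DESeq2. Among all features 0.00800% were called and 2.61% had an unadjusted p below 0.05. edgeR, which tested 56 copies after its filter, called 0. Of the 5, AT3TE66730 and AT5TE57230 were on the higher side (4.61 ± 1.86 and 6.10 ± 2.97). AT3TE66730 had 8 and 30 reads in nrpd1a-3 FTL, against 0 and 2 in WT FTL, and AT5TE57230 had 0 and 18, against 0 and 0. AT2TE12315, AT4TE27915 and AT1TE22850 were on the lower side, with log2 fold changes of -5.85 ± 2.94, -2.78 ± 1.00 and -1.97 ± 0.88. AT1TE22850 had 19 and 14 reads in nrpd1a-3 FTL, against 119 and 44 in WT FTL, so that its groups did not overlap. The fitted value of AT2TE12315 rested on 28 reads in WT FTL replicate 1. No family passed the test by DESeq2 or edgeR, beside 0.00807% of all features in the fit with family sums, and the family log2 fold changes with at least 1000 reads lay between -0.44 ± 0.64 for ATLANTYS1 and 0.69 ± 0.64 for ATGP3. The median over the 229 copies was -0.13, against 0.16 over all features and 0.99 over 260 ATHILA copies, of which 1 was called. Leaf markers reached 17.9 CPM in nrpd1a-3 FTL replicate 1 and 0.505 in replicate 2, against 0.494 and 0.252 in WT FTL, and their part was not tested.

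The effects of pLAT52::RTL1 and nrpd1a-3, each against its own wild type, were compared within a model of all 10 libraries. Of 61 copies tested, 2 were higher on the pLAT52::RTL1 side and 1 was lower, whereas 0.574% of all features were higher and 2.16% lower. The higher copies were AT2TE12315 and AT1TE22850, with differences of 7.51 ± 2.19 and 2.45 ± 0.71 (adjusted p = 0.0284 and 0.0291, DESeq2). AT4TE08440 was lower, with a difference of -3.59 ± 1.04 (adjusted p = 0.0278, DESeq2). edgeR called 0 of 87 copies and 0 of 14037 features in all, and 11 copies had an unadjusted p below 0.05. Without WT FTL replicate 1 the difference was 1.52 for AT2TE12315, with no adjusted p, 1.75 for AT1TE22850 and -3.11 for AT4TE08440, and none was called. The call of AT1TE22850 was also lost without pLAT52::RTL1 replicate 1 (1.80) or WT Col-0 replicate 2 (2.16), and that of AT4TE08440 without pLAT52::RTL1 replicate 2 (-3.14). Of 15 alternatives, AT2TE12315 was called in 3, AT4TE08440 in 6 and AT1TE22850 in 10. AT2TE12315 had no adjusted p in 9 of them and AT4TE08440 in 5. AT4TE21295 did not pass the test of the difference (2.07 ± 1.76, adjusted p = 0.74, DESeq2).

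The most abundant copies differed chiefly between the experiments, which is a description only, because sorting and experiment cannot be told apart. AT4TE51005 (ATLANTYS3, 4130 bases, chr4:11116678-11120807) had 1451 and 2427 reads in pLAT52::RTL1 pollen, 1765 and 1764 in pMGH3::RTL1 pollen and 1536 and 1845 in WT Col-0. It had 128 and 122 reads in nrpd1a-3 FTL and 318 and 122 in WT FTL. AT3TE13060 (ATLANTYS3, chr3:3111278-3115854) followed the same order, with 1217 to 1750 reads in the 6 unsorted libraries and 118 to 732 in the 4 sorted ones. AT1TE22850 (ATLANTYS2, chr1:7066493-7071562) had 1722 and 769 reads in pLAT52::RTL1 pollen, 771 and 563 in pMGH3::RTL1 pollen, against 623 and 473 in WT Col-0. Its fold change over WT Col-0 was within error (0.56 ± 0.54, adjusted p = 0.61, DESeq2). All 3 of these copies were low in sorted pollen. The vegetative cell markers were also lower there, as were the 38 TE silencing genes (112 to 170 CPM summed in the unsorted libraries, 12.1 to 49.9 in the sorted ones). The 10 sperm markers overlapped, at 647 to 973 CPM unsorted and 481 to 1058 sorted. Any link of these levels to the copies was not tested.

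The ATGP2 copies at the left end of chromosome 2 and an ATGP8 copy showed the opposite order. AT2TE00015 (16355 bases, chr2:13072-29426) had 135 and 128 reads in pLAT52::RTL1 pollen, 160 and 112 in pMGH3::RTL1 pollen and 177 and 142 in WT Col-0. It had 516 and 829 reads in nrpd1a-3 FTL and 475 and 744 in WT FTL. AT2TE00075 (7668 bases, chr2:42129-49796), which matched it at 97.7% identity, had 31 to 95 reads in the unsorted libraries and 419 to 670 in the sorted ones. AT5TE49770 (ATGP8, 1145 bases, chr5:13972629-13973773) held 87.5% of all ATGP8 reads. It had 1049 and 1285 reads in nrpd1a-3 FTL and 852 and 1330 in WT FTL, and 309 to 573 in the unsorted libraries. The unassigned TE AT5TE49765, 50 bases to its left, had more reads than this copy in every library. It had 7618 and 8943 reads in nrpd1a-3 FTL, 4193 and 7792 in WT FTL and 1698 to 3087 in the unsorted libraries. The intergenic row between them had 1608 and 1946 reads in nrpd1a-3 FTL and 857 and 1653 in WT FTL. Reads thus crossed the left edge of AT5TE49770, and in which of the rows their transcript began was not tested. On the scale of normalised counts per kb, AT5TE49770 averaged 299 ± 46.3 in pLAT52::RTL1 pollen, 293 ± 10.6 in pMGH3::RTL1 pollen and 299 ± 5.58 in WT Col-0 (SD, n = 2 each), so the 3 unsorted groups lay within their spread. AT3TE91745 (ATLANTYS2) and AT2TE00095 (ATLANTYS3) had 88 to 348 and 57 to 442 reads, and their groups overlapped between the experiments.

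**Figure D4:**
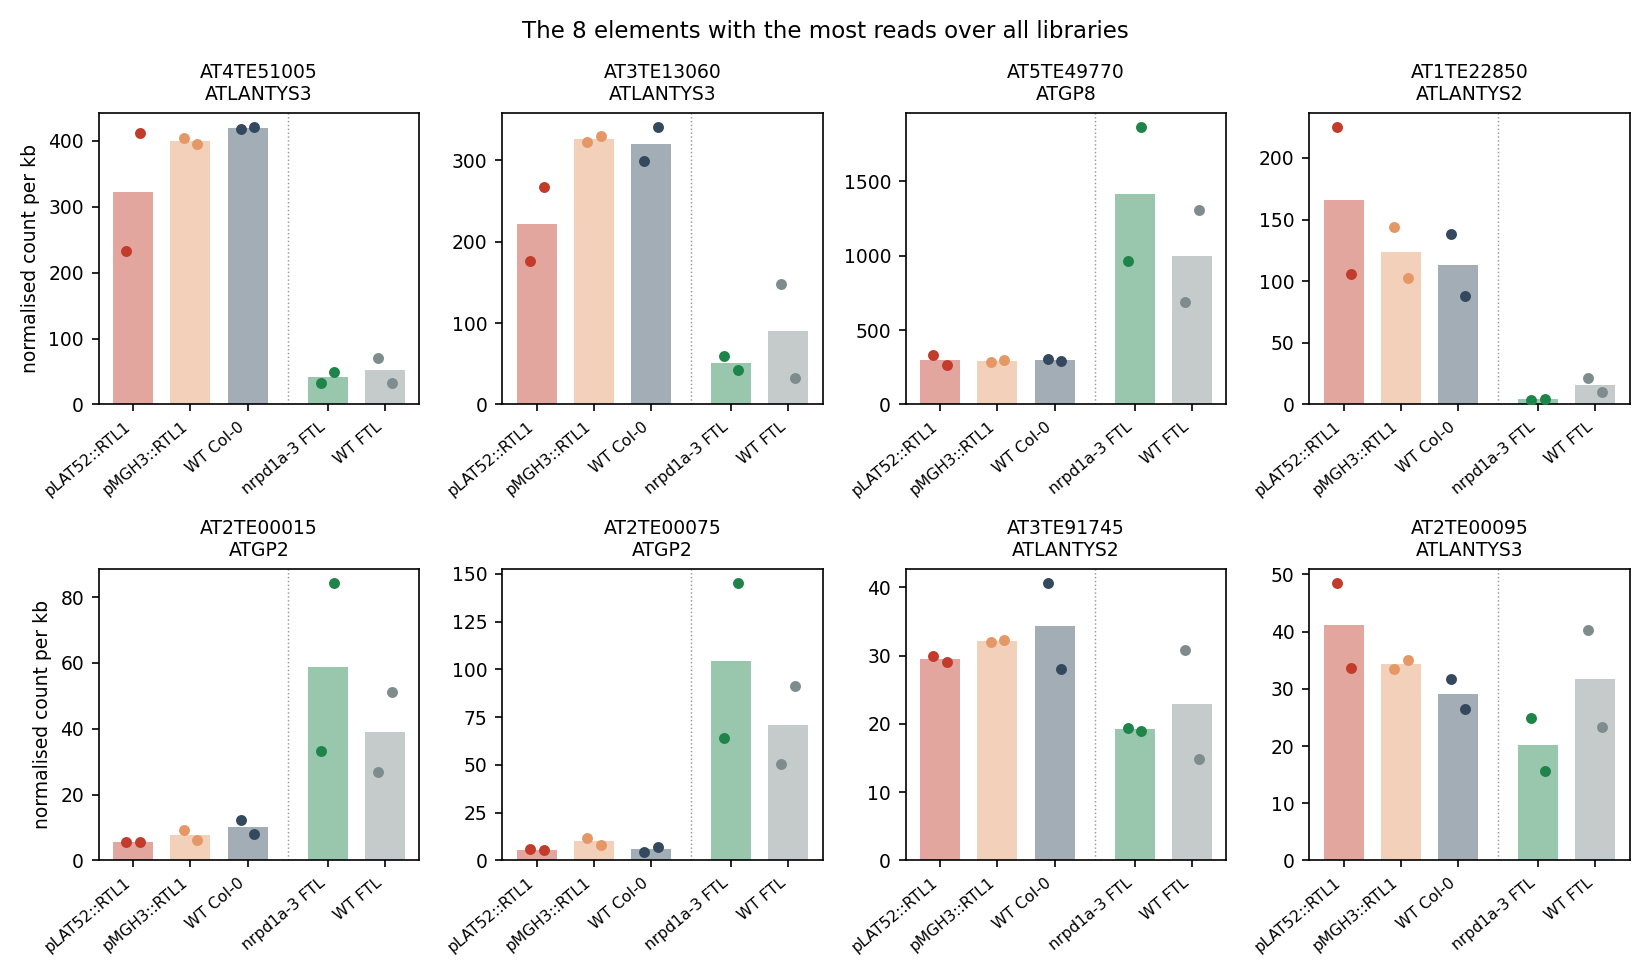
Normalised counts per kb of the 8 most abundant copies, with size factors of all 10 libraries. Points are libraries, bars are means of 2, and the dotted line separates the experiments. AT4TE51005, AT3TE13060 and AT1TE22850 are lower in both sorted groups than in the 3 unsorted ones, and AT5TE49770, AT2TE00015 and AT2TE00075 are higher.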

How the data were processed

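Polyadenylated RNA of pollen was sequenced in 10 libraries (5 groups of 2). Per the labels the reads were aligned with STAR to TAIR10, and the authors deposited raw counts per gene, TE and intergenic row, 1 table per library. The counting program, its use of strand and its treatment of reads with several alignments were not given in the sources used here. Total counts over genes and TEs were 43490027 to 53471964.

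The copies and gene lists were chosen with earlier results of these data known. Coordinates are those of the tables (TAIR10). Counts of all genes and TEs were fitted with DESeq2 1.42.0 (R 4.3.3; median-of-ratios size factors, Wald test, independent filtering, Benjamini-Hochberg adjustment over all features, threshold 0.05), with 1 fit for the 6 unsorted libraries and 1 for the 4 sorted ones. For families, the copies were replaced by 1 summed row per family. Copies were named if called in a comparison with their wild type or among the 8 with the most reads, families if they had at least 100 reads; AT4TE21295 because the study displayed it, and other copies after their values were seen. The paper describes the RNA sequencing of each construct as done on independent lines, so leaving out a transgenic replicate leaves out a line. Labels do not say whether the other replicates were separate plants or sorts, so p-values measure the spread between these samples. Alternatives were edgeR 4.0.16, other scalings and filters, halved counts, a replicate block, fits of other library sets and leave-one-out.

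Terminal repeats were sought with blastn (BLAST+ 2.17.0) as matches of at least 80 bases within 30 bases of both ends, and copies elsewhere as matches of at least 99% identity over 150 bases. Sequences are from RefSeq TAIR10.1. Exact 95% intervals of ratios came from read pairs (reads of a library halved and rounded up) and cover counting error only.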

Additional observations from a re-analysis of the deposited data

Results flagged for a closer look

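The effects of pLAT52::RTL1 and nrpd1a-3 FTL, each relative to its own wild type, differed by the test of the difference itself for 3 copies. AT2TE12315 (ATGP5) had a log2 difference of 7.51, which was 1.52 without WT FTL replicate 1, with 76 and 56 reads in pLAT52::RTL1 against 10 and 16 in WT Col-0, and 0 and 0 in nrpd1a-3 FTL against 28 and 0 in WT FTL. AT1TE22850 (ATLANTYS2) had a difference of 2.45, with 1722 and 769 reads in pLAT52::RTL1 against 623 and 473 in WT Col-0, and 19 and 14 in nrpd1a-3 FTL against 119 and 44 in WT FTL. AT4TE08440 (ATGP2) had a difference of -3.59, with 14 and 6 reads in pLAT52::RTL1 against 36 and 34 in WT Col-0, and 60 and 128 in nrpd1a-3 FTL against 40 and 76 in WT FTL. No copy was called without WT FTL replicate 1 or without WT Col-0 replicate 2, and 1 was called without WT Col-0 replicate 1, pLAT52::RTL1 replicate 1 or pLAT52::RTL1 replicate 2. Groups of 2 were too small to look for outlying samples.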

How the results depend on the processing

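None of the called copies and families changed sign under an alternative. The other fold changes were not followed across the alternatives. Against WT Col-0, AT4TE21295 was called in all 13 alternatives that gave it an adjusted p (log2 fold change 4.52 to 5.71), AT2TE08225 in 12 of 13 and AT1TE51700 in 9 of 10. AT3TE57060 and AT4TE74250 were each called in 5 of 14. For pLAT52::RTL1 against WT Col-0, 9 copies were called, against 5 without independent filtering, 4 with halved counts, 3 in a fit of all 10 libraries and 1 to 7 in leave-one-out fits. For pLAT52::RTL1 against pMGH3::RTL1, 7 were called, against 4 with halved counts, 2 in the fit of all 10 libraries, 4 in a fit of the 4 libraries alone and 0 to 7 in leave-one-out fits. For the difference of effects, 3 were called, against 0 with edgeR, 0 without independent filtering, 1 with halved counts and 0 to 4 in leave-one-out fits. For families in pLAT52::RTL1 against WT Col-0, 5 were called, against 3 with edgeR, 3 without independent filtering, 2 with halved counts, 0 in the fit of all 10 libraries, 3 in the fit of 4 libraries and 0 to 5 in leave-one-out fits. In leave-one-out fits a lone library was assumed to vary like the other groups. No copy and no family was called in pMGH3::RTL1 or nrpd1a-3 FTL against its wild type under any alternative, but with the replicate block only 3 copies and 5 families of the sorted comparison had an adjusted p. The cause of these changes was not tested.

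With the replicate number as a block, 5 copies and 5 families were called in pLAT52::RTL1 against WT Col-0, and 0 of 3 copies tested in nrpd1a-3 FTL against WT FTL. All 3 had an unadjusted p below 0.05. Over all features the block gave 407 calls of 2930 tested in the sorted comparison, against 2 of 24995 without it, so its 0 is not comparable with the 0 of 229. The labels give only numbers. Deviations of same-numbered libraries correlated at 0.57 between the sorted groups and at -0.02 to 0.22 between the unsorted groups, over features with a mean count of at least 50. Why 865 of 1214 copies had no read, whether through depth, silence or the handling of reads with several alignments, was not tested. Of the other 349, 49 had an adjusted p in pLAT52::RTL1 against WT Col-0, 44 in pLAT52::RTL1 against pMGH3::RTL1 and 61 in the difference of effects.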

Other observations

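AT1TE28460 and AT1TE28510 are 86-base ATLANTYS3 fragments on chromosome 1 (chr1:8816057-8816142 and chr1:8830435-8830520) with the same sequence, which the row AT1TE28330 (ATLANTYS3) also holds in full, so reads inside them cannot be told apart. They were singled out after their values were seen. AT1TE28460 had 182 and 178 reads in nrpd1a-3 FTL and 178 and 164 in WT FTL, and 0 to 6 in each of the 6 unsorted libraries. AT1TE28510 had 102 and 99 reads in nrpd1a-3 FTL and 106 and 91 in WT FTL, and 0 to 3 in the unsorted libraries. The intergenic rows to their right carried the same pattern, with 464 to 679 reads in nrpd1a-3 FTL and 371 to 552 in WT FTL, and at most 20 in the unsorted libraries. The shared sequence is given, on the plus strand, because it is the same in these rows.
AT1TE28460 and AT1TE28510: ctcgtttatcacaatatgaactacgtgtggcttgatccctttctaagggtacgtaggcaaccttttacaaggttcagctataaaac

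AT5TE36830 (ATGP2N, 7733 bases, LTRs 99.5% identical, tRNA-Met match) lies inside the ATLANTYS2 row AT5TE36825. It had 14 and 154 reads in nrpd1a-3 FTL and 20 and 62 in WT FTL, and 0 to 14 in the unsorted libraries, with the same counts for the outer row in 9 of 10 libraries.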
